A study of Mus musculus with 2 samples.

Results

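T cells were taken from lungs with a low and a high metastatic burden by their T cell receptor complex transcripts. The T cells were thus chosen by measured counts, among cells in which between 500 and 7000 genes were detected and no more than 10% of UMIs came from mitochondrial genes. It took at least 2 unique molecular identifiers (UMIs) of Cd3d, Cd3e and Cd3g together, and at least 3 per 10000 UMIs of the cell, to call a T cell. Cells with more than 1 UMI of the B cell genes Cd79a and Cd79b, with 50% or more of their UMIs from Hba-a1 and Hbb-bs, or with 10 or more complement C1q UMIs per 10000 were left out. This gave 334 T cells of 5614 kept cells, 276 of 2574 in the low-burden library and 58 of 3040 in the high-burden library. The lower limit of 500 genes is below the 1000 genes used by the study, and it added 83 T cells, all of them from the low-burden lung.

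Both lungs came from female FVB/NJ mice, aged 10 weeks when the mammary carcinoma line Met-1, itself of mouse origin, was injected into the tail vein. The low-burden lung was collected at week 1 and the high-burden lung at week 3, with 1 mouse and 1 library per group. Whole lungs were perfused and dissociated with enzymes, without a sort for lymphocytes, and sequenced on the 10x Genomics droplet platform. No lung of a mouse without injected carcinoma cells was analysed here. Week, burden, mouse and sequencing depth differ together and cannot be told apart, so that no test between the groups was possible and each difference describes this pair of libraries. Intervals are at the 95% level and cover counting error only.

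T cells recognise peptides on other cells through a receptor that signals by way of the CD3 chains. Naive T cells circulate between blood and lymph nodes with the help of the homing receptor CCR7 and the egress receptor S1PR1, and they depend on interleukin 7 for survival. After stimulation they lose much of this programme and display activation receptors such as CD25, OX40 and 4-1BB, and inhibitory receptors such as PD-1, LAG-3 and CTLA-4. CD8 T cells kill target cells, CD4 T cells help other leukocytes, and regulatory T cells, marked by the transcription factor FOXP3, restrain responses.

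The label was checked against markers that the rule did not use. Lck, the kinase that starts T cell receptor signalling, was detected in 174 of 276 and 41 of 58 T cells. Its level was 294 CPM (UMIs summed over cells and scaled to a total of 1000000) against 12.3 CPM in all other kept cells at low burden, and 267 against 4.00 CPM at high burden. Cd8b1 was found in 79 and 17 T cells and Cd4 in 60 and 15. The 20 genes that stood highest in low-burden T cells over the other cells were led by Icos, Cd8b1, Cd8a, Cd28, Cd6 and Skap1, and also held the costimulatory receptors Tnfrsf4 and Tnfrsf18, the adaptor Lat and, as a gene of dividing cells, the histone Hist1h2ap. Ncr1 and Klrb1c, which mark natural killer cells, were at 0 in the T cells of the high-burden lung and had 24 UMIs in 10 cells and 19 UMIs in 15 cells at low burden. The whole natural killer list summed to 674 and 694 CPM, which does not follow Ncr1 and Klrb1c. In low-burden T cells of 1000 or more genes, Tyrobp and Fcer1g gave 410.5 and 227.2 of its 805.5 CPM. The constant genes of the T cell receptor were not used here, so that gamma delta T cells were not told apart.

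The summed Cd3 level that chose the cells was lower at high burden. It ran from 3.05 to 102 UMIs per 10000 in low-burden T cells with a median of 16.9, and from 3.10 to 37.8 with a median of 9.45 in high-burden T cells. Just inside the limit, 25 and 6 T cells had exactly 2 Cd3 UMIs. Just outside it, 214 and 326 cells that met the other limits had 1 Cd3 UMI, with medians of 1.99 and 0.425 per 10000. A further 21 and 71 cells had 2 or more Cd3 UMIs but fewer than 3 per 10000. The limit thus cut through a wider band of cells in the deeper library. No T cell carried a barcode that occurs in the other library, although 11 barcodes were shared among all cells.

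T cells made up a smaller share of the high-burden lung. At low burden they were 10.7% of kept cells (9.55 to 12.0), and at high burden 1.91% (1.45 to 2.46). Among cells of 1000 or more genes, the limit of the study, it was 7.80% (193 of 2473) and 1.91% (58 of 3033). Carcinoma cells are part of the high-burden total. When cells with 10 or more UMIs of Ccnd1, Cdkn2a, Hmga2, Twist1 and Fosl1 were left out, the shares were 10.7% (275 of 2564) and 3.61% (55 of 1522; 2.73 to 4.68). B cells, chosen in the same way by Cd79a and Cd79b, were 1.63% and 1.02% of kept cells, and natural killer cells 1.32% (34 cells) and 0.132% (4 cells). The natural killer rule allowed no Cd3 or Cd79 UMI, which is a stricter limit in deeper cells. Natural killer shares were not compared at equal depth.

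The share depended on depth. The smallest cell of the high-burden library held 5163 UMIs, and that of the low-burden library 2388. Only 45 of the 276 low-burden T cells (16.3%) reached 5163 UMIs, here called the shared UMI floor, and all 58 high-burden T cells did. Among cells at or over this floor, T cells were 5.38% of the low-burden lung (45 of 837; 3.95 to 7.13) and 1.91% of the high-burden lung. With carcinoma-gene cells left out as well, the values were 5.32% (44 of 827; 3.89 to 7.08) and 3.61% (2.73 to 4.68), so that the intervals overlapped. Small T cells of the kind that filled the low-burden library would lie below the smallest cell of the high-burden library, and their number there is not known.

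**Figure D1:**
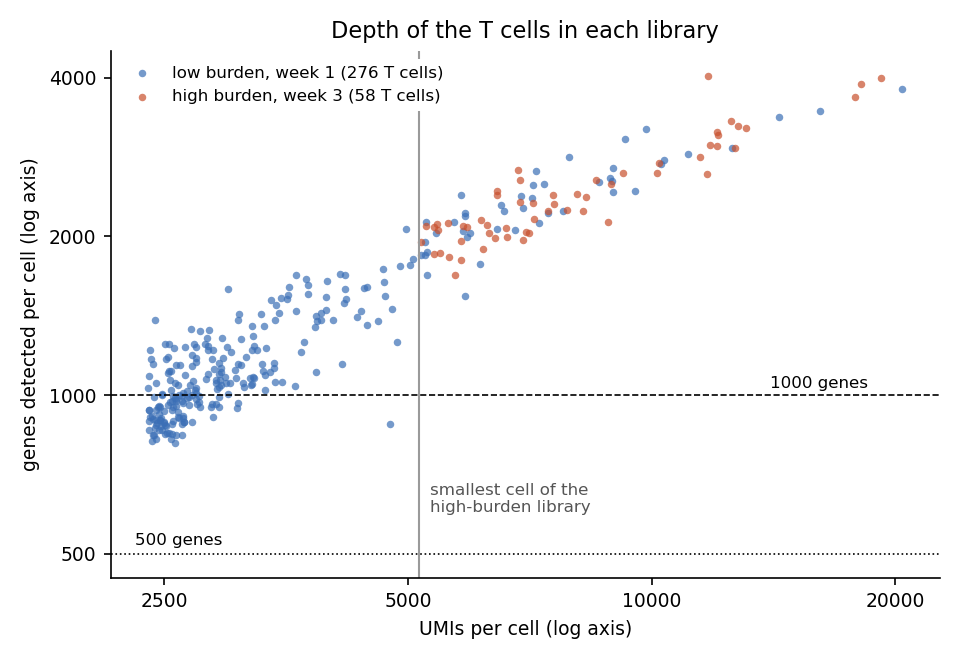
Each point is 1 T cell, with its UMIs on the x axis and its detected genes on the y axis, both on log axes. Blue points are the 276 T cells at low burden and orange points the 58 T cells at high burden. The vertical line marks 5163 UMIs, the smallest cell of the high-burden library, and the dashed line 1000 genes. The low-burden cells under the dashed line are the 83 cells of 500 to under 1000 genes.

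The low-gene T cells were small cells in which most naive genes stood above their level in larger T cells. T cells made up 83 of the 101 kept low-burden cells with under 1000 genes (82.2%, 73.3 to 89.1), and 0 of 7 such cells at high burden. Their median was 2556 UMIs and 911 genes, with a mitochondrial share of 3.14%, close to the 2.92% of the 193 larger T cells. Ribosomal protein transcripts took 44.1% of their UMIs against 31.7% in the larger cells. A cell with few genes must draw its UMIs from fewer transcripts, and the limit of 1000 genes chose on this directly, so the values below are descriptions.

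Of 4371 genes measured, 57 were at least 2-fold higher and 1028 at least 2-fold lower in them than in T cells of 1000 or more genes, with a median log2 ratio of -0.44. Of the 12 naive genes all but Bach2 were above the larger cells, with a median of 0.52, led by Dapl1 (log2 ratio 1.29, 0.91 to 1.66), Satb1 (0.97), Lef1 (0.81) and Ccr7 (0.77). Of the 16 T cell core genes that the rule did not use, 0 were past 2-fold. Some activation and memory genes were scarce. Ctla4 had 1 UMI against 72, Pdcd1 0 against 17 and S100a4 6 against 368, and 11 of 17 memory and tissue residence genes were at least 2-fold lower. Other such genes were closer to the larger cells, Cd69 at 106 against 110 CPM (-0.04), Tnfrsf18 at -0.33 and Icos at -0.97. Only 1 of the 83 cells had a Foxp3 UMI. Haemoglobin transcripts, which belong to red cells, were the highest of all: Hba-a1 had 1157 UMIs in the low-gene cells and 249 in the larger ones.

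Between the lungs, T cells were first compared over all 6183 genes with at least 20 UMIs over both sums and detection in 10% of the T cells of either library. A gene low in 1 lung could pass through the other alone. At high burden 625 genes (10.1%) were at least 2-fold higher and 350 (5.66%) at least 2-fold lower, with a median log2 ratio of 0.17. The median ratio of 3073 well-counted genes lay at 0.27 on the log2 scale. With that value set to 0, 351 genes were higher and 597 lower, so ratios within 0.27 of 0 have no fixed direction. T-enriched genes were those at 3 or more times the level of all other kept cells, with both libraries summed. Most T cells are of the low-burden library and most other cells of the high-burden library, so a gene that is lower at high burden passes this limit more easily and nothing is read from the split of these genes. Of 342 such genes, 18 (5.26%) were at least 2-fold higher and 103 (30.1%) at least 2-fold lower. With the limit met within each library instead, 11 of 196 were higher and 53 lower, and 18 and 20 of 165 at the shared UMI floor. Among T cells at the shared floor 4905 genes passed the filter, of which 323 (6.59%) were higher and 373 (7.6%) lower, and the median was 0.01.

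The T-enriched genes that were highest at high burden included activation receptors and a chemokine. By the fixed rule the 10 were Nrn1, Xcl1, Tnfrsf9, Il2ra, Pdcd1, Lag3, Tnfrsf4, Rgs16, Gzmb and Cxcr3. The 10 lowest were Gm11713, Phxr4, Rpl6l, Il7r, Cmah, Dapl1, Ccr7, Mbp, Tdrp and Il27ra. Of the lowest, Phxr4, Rpl6l and Mbp did not reach 3 times the other cells within either library, and Gm11713 and Cmah reached it at low burden only. Of the highest, Nrn1, Lag3, Rgs16 and Gzmb reached it at high burden only. Promoters are printed for 4 of these genes, 2 from each end, as examples of the sequence before the start site of genes that stood opposite each other. Each is the 250 bases before the start site in RefSeq on build GRCm38.p6, 5′ to 3′ on the strand of the gene, with GGAAA, the core bound by NFAT factors of T cell activation, in capitals on either strand (as TTTCC on the other). Xcl1 lies at chr1:164935523-164935772 on the minus strand, Pdcd1 at chr1:94052554-94052803 on the minus strand, Il7r at chr15:9529877-9530126 on the minus strand and Dapl1 at chr2:59484403-59484652 on the plus strand.
Xcl1: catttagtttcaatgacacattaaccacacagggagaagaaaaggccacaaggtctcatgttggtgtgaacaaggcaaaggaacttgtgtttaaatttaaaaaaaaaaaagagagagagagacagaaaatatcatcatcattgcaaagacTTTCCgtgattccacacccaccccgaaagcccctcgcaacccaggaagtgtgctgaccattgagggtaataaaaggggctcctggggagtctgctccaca
Pdcd1: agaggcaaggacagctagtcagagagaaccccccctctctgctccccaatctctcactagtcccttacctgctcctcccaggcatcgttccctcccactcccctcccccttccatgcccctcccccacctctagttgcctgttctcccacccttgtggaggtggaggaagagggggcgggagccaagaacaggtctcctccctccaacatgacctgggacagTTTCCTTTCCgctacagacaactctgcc
Il7r: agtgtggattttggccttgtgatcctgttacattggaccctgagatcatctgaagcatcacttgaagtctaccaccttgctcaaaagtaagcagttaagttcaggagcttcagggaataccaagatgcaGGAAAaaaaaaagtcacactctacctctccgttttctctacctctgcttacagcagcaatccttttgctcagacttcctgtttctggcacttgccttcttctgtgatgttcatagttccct
Dapl1: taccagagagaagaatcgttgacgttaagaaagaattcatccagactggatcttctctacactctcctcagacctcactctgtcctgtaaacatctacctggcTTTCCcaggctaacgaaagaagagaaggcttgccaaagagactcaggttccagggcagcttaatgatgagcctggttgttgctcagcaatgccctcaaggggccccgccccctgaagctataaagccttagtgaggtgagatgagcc

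The NFAT core occurred once each in Xcl1, Il7r and Dapl1 and 2 times in Pdcd1, and it is in 55.6% of all 32851 windows of this length. The AP-1 motif TGANTCA, present in 6.75% of windows, had no match in the 4. The forkhead motif GTAAACA, present in 3.17%, matched only Dapl1, and the KLF motif CCACCC, present in 28.1%, matched Xcl1 and Pdcd1. Neither group of genes was set apart by the NFAT core, which all 4 windows held.

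Xcl1 showed a very large difference. It encodes lymphotactin, a chemokine of activated CD8 T cells and natural killer cells that attracts cross-presenting dendritic cells. Its UMIs numbered 7 in 4 low-burden T cells and 180 in 11 high-burden T cells, a log2 ratio of 5.79 (4.72 to 7.13). The high-burden cells held 60, 40, 25, 21, 16, 7, 4, 3, 2, 1 and 1 UMIs, so that 2 cells gave 55.6% of the total. The low-burden cells held 4, 1, 1 and 1. At the shared floor the count was 0 at low burden, which makes the level at high burden at least 43.7-fold higher when 3 UMIs are allowed for the sum of the 45 cells (log2 5.45). The 11 cells were not deeper than the others, with a median of 6625 UMIs against 7449. Of these 11 cells, 10 also had Nkg7, a granule gene of cytotoxic cells, 8 had Cd8b1, 8 Top2a, 7 Lag3, 6 Pdcd1, 4 Ccl4 and 2 Gzmb, and none had Cd4 or Foxp3.

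Receptors of activated T cells were next in order. Tnfrsf9, which encodes the costimulatory receptor 4-1BB, had 7 UMIs in 6 low-burden cells and 84 UMIs in 19 high-burden cells (log2 ratio 4.69, 3.59 to 6.05). Pdcd1, which encodes PD-1, had 17 UMIs in 10 cells and 56 in 18 (2.83, 2.02 to 3.70). Tnfrsf4, which encodes OX40, had 63 UMIs in 30 cells and 157 in 20 (2.42, 1.99 to 2.87). These 3 were found in 18 to 20 cells of the high-burden library, with a highest cell of 15, 8 and 34 UMIs. Their 2 highest cells held 32.1%, 26.8% and 38.9% of the UMIs. After the cell with 34, the next Tnfrsf4 cells held 27 and 24 of the 157 UMIs. Il2ra, the alpha chain of the interleukin 2 receptor, had 9 and 35 UMIs (3.06), and its partner chain Il2rb had 53 and 63 (1.35). Of the 35 Il2ra UMIs, 51.4% were in 2 of 12 cells. Lag3 had 8 UMIs in 4 cells, 5 of them in 1 cell, and 24 UMIs in 13 cells (2.69, 1.49 to 4.06).

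Other genes of this end were found in fewer cells. Nrn1, encoding the membrane protein neuritin, had 1 and 30 UMIs (log2 ratio 6.01, 3.42 to 11.4), with 23 of the 30 in 2 of 6 cells. Gzmb, the protease granzyme B, had 14 and 24 UMIs in 8 cells each (1.88, 0.87 to 2.95). Cxcr3, a receptor that guides T cells to inflamed tissue, had 25 and 37 UMIs (1.67), in 17 cells of each library. Rgs16, a regulator of G protein signalling, had 11 and 26 (2.35). The cytokine genes Il4, Il5, Il13, Il17a, Il17f, Il21 and Il22 had at most 2 UMIs in either library, and Ifng had 10 and 13.

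Genes of naive and recirculating cells lay at the other end. Il7r, the receptor of interleukin 7, had 261 UMIs in 144 of 276 low-burden cells and 18 UMIs in 12 of 58 high-burden cells (log2 ratio -2.75, -3.53 to -2.06). Ccr7 had 341 UMIs in 152 cells and 26 in 16 (-2.61, -3.24 to -2.03). Dapl1 had 259 UMIs in 92 cells and 19 in 8 (-2.66, -3.42 to -1.99). Each of these 3 transcripts was spread over at least 92 of the 276 low-burden T cells. The transcription factors Lef1 (-2.30) and Tcf7 (-1.58) and the chromatin organiser Satb1 (-2.19), all typical of naive T cells, were lower in the same sums. S1pr1 had 223 and 29 UMIs (-1.84) and its regulator Klf2 had 1320 and 225 (-1.45).

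Of the 12 naive genes, 11 passed the filter and Bach2, with 27 and 5 UMIs, did not. At least 2-fold lower were 9 of the 11, against 5.66% of all genes, and the median was -1.58. Igfbp4 (-0.76) and Actn1 (0.36) were the exceptions. Several of these genes were also lower in the other kept cells, whose makeup differs between the lungs: Klf2 by -1.82, S1pr1 by -2.69 and Ccr7 by -1.84, against -1.07 for Il7r and -0.89 for Lef1. The part of the cell makeup in these ratios was not tested.

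**Figure D2:**
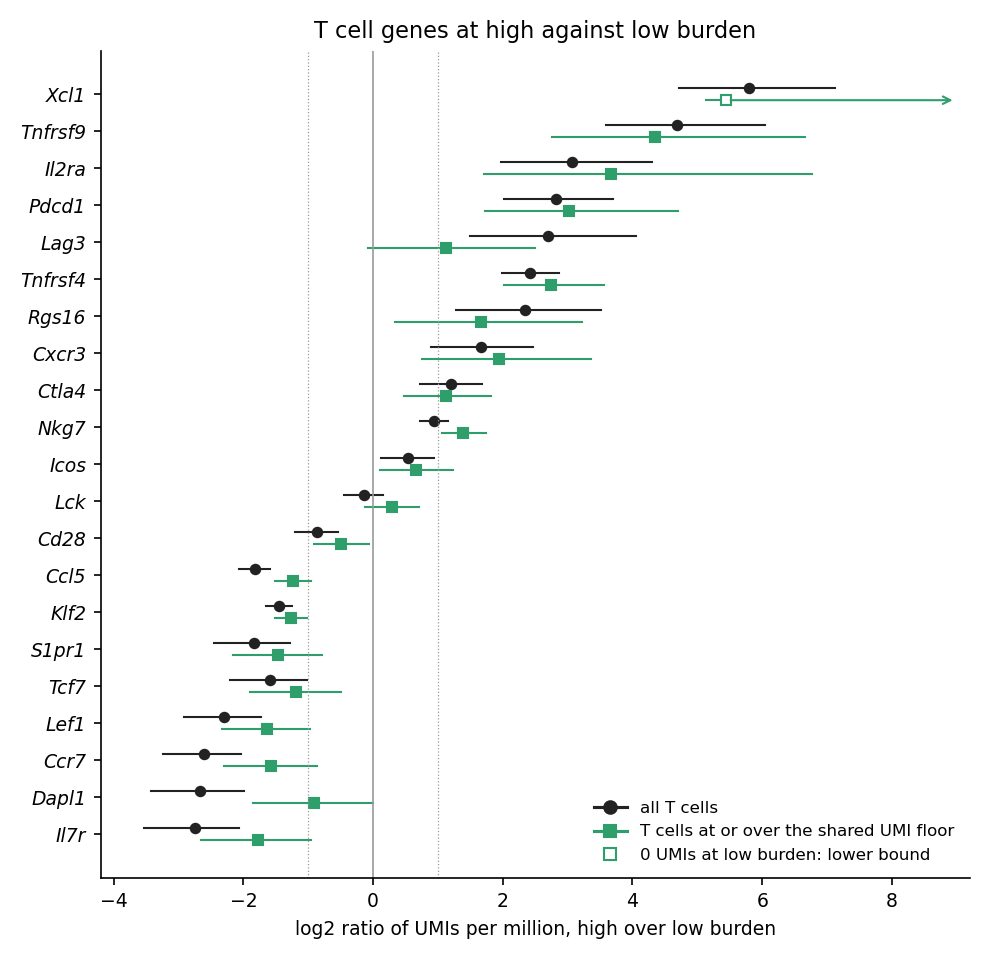
Log2 ratios of CPM, high over low burden, are shown for 21 genes with 95% counting intervals. Black circles use all T cells and green squares the 45 and 58 T cells at or over the shared UMI floor. The open square is a lower bound, since Xcl1 had 0 UMIs in the 45 low-burden cells. Xcl1, Tnfrsf9, Il2ra, Pdcd1 and Tnfrsf4 lie above 2-fold (dotted lines) in both sets, and Il7r, Ccr7 and Lef1 below it.

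Depth moved the size of these ratios, and less often their side. At the shared floor Tnfrsf9 stood at 4.35 (2.75 to 6.66), Pdcd1 at 3.03 (1.72 to 4.70), Tnfrsf4 at 2.75 (2.02 to 3.56) and Il2ra at 3.67 (1.71 to 6.77). Lag3 came down from 2.69 to 1.13, with an interval of -0.08 to 2.49. At the lower end Il7r stood at -1.78 (-2.66 to -0.96), Ccr7 at -1.57, Lef1 at -1.63 and S1pr1 at -1.46. Dapl1 shrank from -2.66 to -0.91 (-1.85 to -0.00). The low-burden cells under the floor held most of this transcript, since only 26 of the 259 Dapl1 UMIs were in the 45 cells at the floor.

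Class II genes marked a further set of cells. At or over 50 UMIs per 10000 of Cd74, H2-Aa, H2-Ab1 and H2-Eb1, genes of antigen presentation that mouse T cells make little of, were 15 of 276 low-burden and 14 of 58 high-burden T cells. These included 13 of the 45 low-burden cells at the floor. Without them, at the floor, 32 and 44 cells were left. Tnfrsf9 then stood at 4.13, Pdcd1 at 3.11, Tnfrsf4 at 2.48, Il7r at -2.05, Ccr7 at -1.41 and S1pr1 at -2.01. Xcl1 had 0 and 179 UMIs, a ratio of 5.25 with 3 UMIs allowed at low burden and a lower limit of 4.94. Dapl1 was at -0.26 (-1.39 to 0.90) and Lag3 at 0.72 (-0.61 to 2.22), so neither kept a 2-fold difference.

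Detection was then compared with every cell thinned to 2388 UMIs, the total of the smallest kept cell, which left out no cell. Tnfrsf9 was found in 1.09% of low-burden and 24.1% of high-burden T cells, Xcl1 in 1.09% and 17.2%, and Pdcd1 in 2.54% and 19.0%. Before thinning, the counts were 6 of 276 and 19 of 58 for Tnfrsf9, 4 and 11 for Xcl1, and 10 and 18 for Pdcd1. B cells, which should lack these receptors, had none in 42 and 31 cells at the same depth, with upper interval limits of 8.41% and 11.2%. Their median depths were 3642 and 6110 UMIs, against 2936 and 7093 in T cells. Il7r went the other way, from 43.5% to 6.90% of T cells, with none in B cells. Ccr7, which B cells also use for homing, went from 47.5% to 12.1% in T cells and from 42.9% to 9.68% in B cells. S1pr1 was in 39.5% and 10.3% of T cells, and in 21.4% (10.3 to 36.8) and 32.3% (16.7 to 51.4) of B cells, whose intervals overlapped. The S1pr1 level in B cells was lower at high burden, at 191 and 105 CPM.

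**Figure D3:**
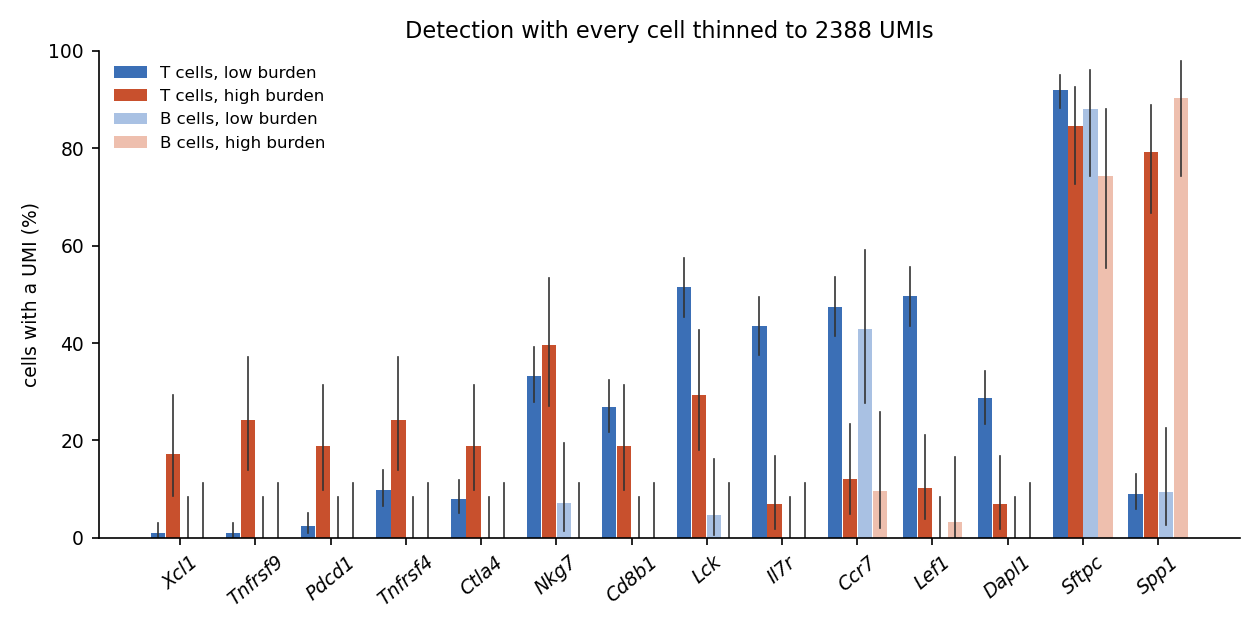
Bars show the percent of cells with a UMI after every cell was thinned to 2388 UMIs, in T cells (dark) and B cells (light) at low (blue) and high (orange) burden, and lines are 95% Clopper-Pearson intervals. Tnfrsf9 is in 1.09% and 24.1% of T cells with none in B cells, while Sftpc and Spp1, genes of other cell types, are found in both classes.

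Gene lists summarised the same comparison. Some list genes were in under 10% of low-burden T cells and passed the filter through the high-burden library alone. They include Il2ra, Tnfrsf9, Pdcd1, Lag3, Gzmb, Ccl4, Ccl3, Xcl1, Cxcr3, Isg20, Rtp4 and Isg15, and most proliferation genes. The counts and medians of the lists that hold them depend on this. The regulatory list had 9 of its 12 genes past the filter, of which 5 were at least 2-fold higher and none lower, against 10.1% and 5.66% of all genes, with a median of 1.10. Ikzf4, Il1rl1 and Ccr8 did not pass. Of 16 checkpoint and exhaustion genes 9 passed, with 6 higher, 1 lower and a median of 1.20. The lower one was Vsir, which encodes the inhibitory ligand VISTA, with 145 and 20 UMIs (-1.75). Of the 7 that did not pass, Havcr2, Tigit, Entpd1 and Cd160 had at most 9 UMIs in either library. These medians stood at 1.13 for both lists at the floor, and at 1.41 and 0.79 there without class II-rich cells. In that last set 6 of 8 regulatory and 2 of 8 checkpoint genes were at least 2-fold higher, against 281 of all 3939 genes. Tnfrsf9, Il2ra, Tnfrsf4 and Ctla4 are in the regulatory list but are also used by activated cells of other kinds.

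The count of effector genes past 2-fold changed with the cells used. Of 21 effector and cytotoxic genes, 11 passed, with 3 at least 2-fold higher (Gzmb, Ccl4 and Ccl3), 1 lower and a median of 0.76, against 10.1% and 5.66% of all genes. At the floor without class II-rich cells 6 of 10 were higher and 0 lower, with a median of 1.46. Of all 3939 genes past the filter in that set, 281 were higher and 325 lower. The lower one was Ccl5, a chemokine of memory and effector T cells, which had 1254 UMIs in 89 low-burden cells and 165 in 28 high-burden cells (-1.82, -2.06 to -1.59). A single low-burden cell held 254 of these UMIs. The Ccl5 ratio was -1.23 at the floor and -0.24 (-0.63 to 0.15) at the floor without class II-rich cells. Summed over all 21 effector genes, the level was lower at high burden, at 2330 and 1879 CPM (-0.31, -0.42 to -0.20). At the floor the sums were 1715 and 1879 CPM (0.13, -0.02 to 0.28). Ccl4 (17 and 43 UMIs, 2.44) was higher in the other kept cells too, by 1.42. Nkg7 had 378 UMIs in 100 cells and 336 in 30 (0.94, 0.72 to 1.15), and 1.39 at the floor. Gzma, another granule protease, had 75 and 2 UMIs, was in too few cells to pass, and was also lower in the other kept cells. Gzmk had none in either library.

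Proliferation was among the lists that moved with depth. Of its 22 genes, 17 were at least 2-fold higher at high burden, against 10.1% of all genes, with a median of 1.62, among them Top2a (79 and 113 UMIs, 1.62) and Mki67 (31 and 37 UMIs, 1.36). All but Pcna, Stmn1, Hmgb2 and Tubb5 passed the filter through the high-burden library alone, so this count and median depend on it. At the floor 2 were higher, against 6.59% of all genes, and 1 lower with a median of 0.30, and Mki67 stood at -0.00. The cycling cells of the low-burden lung were among its largest T cells, with 66 of the 79 Top2a UMIs in the 45 cells at the floor. In thinned cells, Top2a was in 5.4% of low-burden and 29.3% of high-burden T cells. In thinned B cells it was in 2.38% (1 of 42) and 19.4% (6 of 31; 7.45 to 37.5). Mki67 was in 3.26% and 6.90% of thinned T cells, and in 1 of 42 and 0 of 31 B cells. The proliferation list summed to 2424 and 4510 CPM in all T cells, and to 923 and 3327 CPM in other kept cells. The part of RNA of other cells in the proliferation ratios was not tested.

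For the remaining lists the background is again 10.1% of all genes higher and 5.66% lower. Interferon response genes had a median of 0.56, with 7 of 26 at least 2-fold higher, such as Isg20 (3.69), Rtp4 (2.43) and Isg15 (1.77), and Ifi203 (-1.48) lower. Metabolic genes had a median of 0.47, with 4 of 15 higher, among them the glycolytic genes Tpi1 (2.66), Pkm (1.57), Gapdh (1.37) and Pgam1 (1.36). The metabolic list summed to 2316 and 4982 CPM in T cells and to 2168 and 7733 CPM in other kept cells. The part of RNA of other cells in the metabolic ratios was not tested. Memory and tissue residence genes had 6 of 19 higher, including S100a6 (1.87), Lgals1 (1.60) and S100a4 (1.27). These 3 genes were higher by more in the other kept cells (3.54, 2.97 and 3.98) and in B cells (3.82, 2.60 and 2.86), and the part of RNA of other cells in their ratios was not tested. The core list of T cell identity holds Cd3d, Cd3e and Cd3g, which chose the cells. Of its other 16 genes 7 were at least 2-fold lower, such as Cd27, Skap1, Bcl11b, Il7r and Ets1, and 2 at the floor. Genes of T cell receptor signalling had a median of -0.20 with 3 of 21 lower, among them Prkcq (-1.40) and Themis (-1.95). Survival genes had 3 of 12 lower, which were Bcl2 (-2.03), Txnip (-2.22) and Pik3ip1 (-1.35), and 1 higher, Pmaip1 (1.35). The chemokine receptor Cxcr4 stood at -2.16, with 250 and 26 UMIs.

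**Figure D4:**
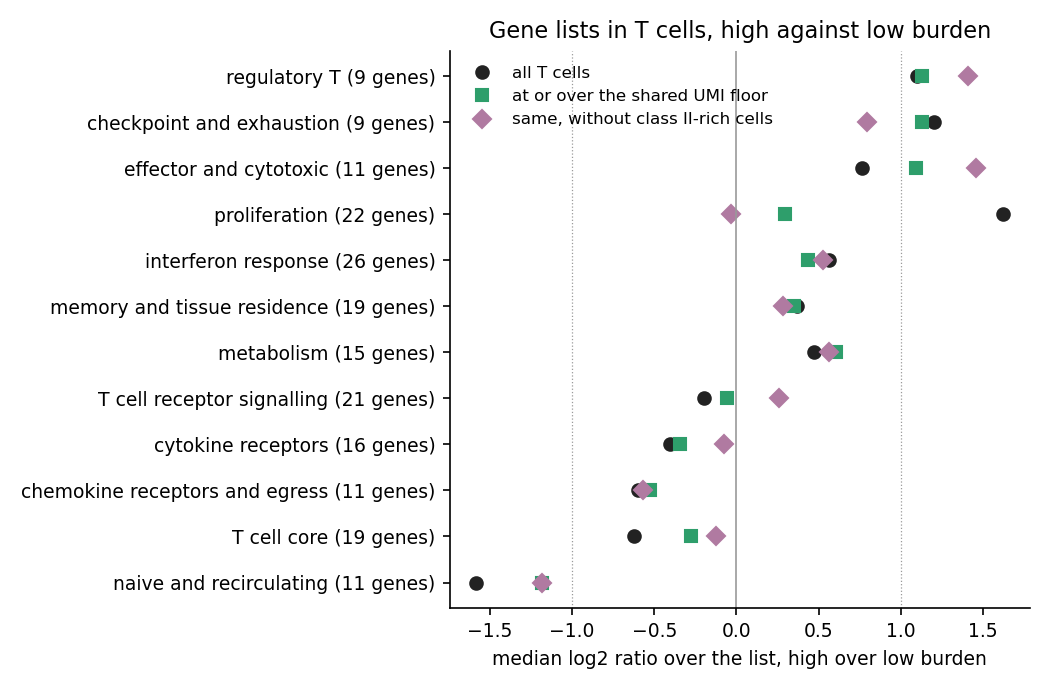
Each symbol is the median log2 ratio, high over low burden, of the genes of a list that passed the filter, with the number over all T cells in brackets. Black circles use all T cells, green squares those at or over the shared UMI floor and purple diamonds the same without class II-rich cells. The T cell core list includes Cd3d, Cd3e and Cd3g, which chose the cells. The naive list lies below 2-fold in all 3 sets, and the proliferation list moves from 1.62 to -0.03.

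The naive and checkpoint lists were then read in single cells. The naive list took a median of 32.2 UMIs per 10000 in low-burden T cells (22.8 in the 45 at the floor) and 9.34 in high-burden T cells. The highest high-burden cell had 40.5 and the highest low-burden cell 126, and the libraries overlapped below that. The checkpoint list had medians of 3.44, 5.13 at the floor, and 6.76 at high burden. It was at 0 in 106 of 276 low-burden cells, 4 of the 45 at the floor and 1 of 58 high-burden cells. Most of the low-burden cells at 0 were thus under the floor. At least 2 of Pdcd1, Tnfrsf9, Lag3, Il2ra, Tnfrsf4, Ctla4 and Xcl1 were found in 24 of 276 low-burden cells (8.70%), 8 of 45 at the floor (17.8%, 8.0 to 32.1) and 30 of 58 high-burden cells (51.7%, 38.2 to 65.1). At least 4 were found in 1, 0 and 14 cells. These 7 genes were chosen with their ratios known.

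**Figure D5:**
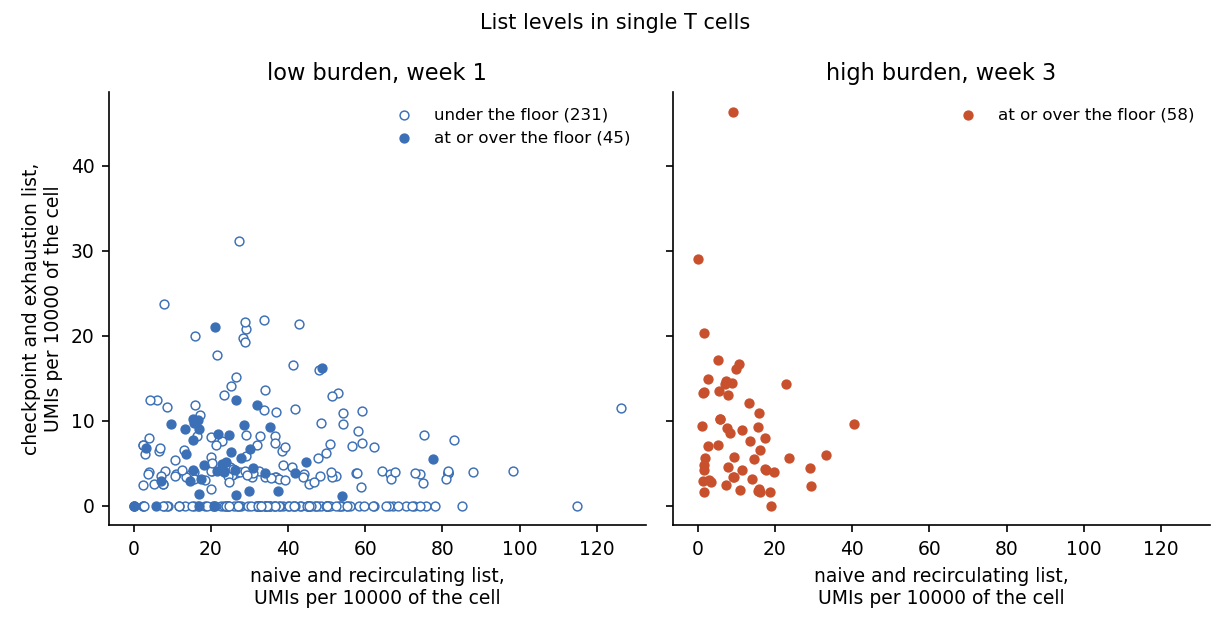
Each point is 1 T cell, with UMIs per 10000 of the naive and recirculating list on the x axis and of the checkpoint and exhaustion list on the y axis, in the low-burden library (left) and the high-burden library (right). Open circles are low-burden cells under the shared UMI floor. High-burden cells lie at or below 40.5 on the x axis, while low-burden cells reach 126.

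T cells were divided by coreceptor, with 1 UMI placing a cell. At low burden 83 cells (30.1%) were CD8, 57 (20.7%) CD4, 3 had both and 133 (48.2%) had neither. At high burden the numbers were 15 (25.9%), 13 (22.4%), 2 and 28 (48.3%). The 2 compositions were close at full depth, and their intervals overlapped. Thinned to 2388 UMIs, CD8 cells were 27.9% and 19.0% and CD4 cells 14.5% and 6.90%. Cells with neither are cells in which a low transcript was missed as well as cells without a coreceptor, and the 2 cannot be told apart.

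CD8 cells carried the Xcl1. In the 83 low-burden CD8 cells its count was 0, and in the 15 high-burden CD8 cells it was 170 UMIs (1323 CPM) in 8 cells. Pdcd1 had 1 and 27 UMIs in these cells (3.25 and 210 CPM, log2 ratio 6.01, 3.41 to 11.4), Tnfrsf9 0 and 28, Nrn1 0 and 26, and Lag3 1 and 10. Nkg7 went from 651 to 1486 CPM (1.19, 0.90 to 1.49), and Ctla4 from 65.1 to 77.8 CPM (0.26, -1.0 to 1.42). CD8 cells were also lower in Il7r (231 and 23.3 CPM, -3.31), Lef1 (-2.71), S1pr1 (-2.35), Ccr7 (-2.25) and Dapl1 (-1.66). Both ends of the order were therefore seen within CD8 cells at full depth, on counts of 15 cells at high burden. The median CD8 cell held 2999 UMIs at low and 7132 at high burden, and 11 low-burden CD8 cells reached the floor. Ratios within coreceptor groups were not computed at the floor.

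CD4 cells shared the receptors but not the chemokine. Xcl1 had 0 UMIs in 57 and 13 CD4 cells. Tnfrsf9 had 1 and 22 UMIs (4.02 and 170 CPM, 5.41, 2.78 to 10.8), Pdcd1 3 and 17 (12.1 and 132 CPM, 3.45, 1.66 to 5.86) and Tnfrsf4 25 and 43 (100 and 333 CPM, 1.73, 0.98 to 2.50). At high burden 1 CD4 cell held 15 of the 22 Tnfrsf9 UMIs, and 1 held 24 of the 43 Tnfrsf4 UMIs. The cell with 15 Tnfrsf9 UMIs also had Foxp3 and is counted again among the Foxp3 cells below. Ctla4 was at 108 CPM in CD4 cells of both libraries. Il7r (-2.43), Ccr7 (-3.24) and Tcf7 (-2.32) were lower, and Dapl1 went from 33 UMIs to 0. Ctla4 differed in the cells with neither coreceptor, at 45.2 and 239 CPM (2.40, 1.66 to 3.19), together with Tnfrsf4 (3.08) and Il2ra (3.01).

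Foxp3, which defines regulatory T cells, was found in 12 of 276 low-burden T cells (4.35%, 2.27 to 7.47) and 9 of 58 high-burden T cells (15.5%, 7.35 to 27.4). At the floor the shares were 11.1% (5 of 45) and 15.5%, and thinned to 2388 UMIs they were 1.45% (4 cells) and 3.45% (2 cells), so no difference in share was detectable at equal depth. A Foxp3 UMI was also found in 0 of 42 and 1 of 31 thinned B cells (3.23%), so the thinned shares are at the level of background. Foxp3 itself had 17 and 12 UMIs. Within these cells Tnfrsf4 was at 270 CPM (165 to 417) in 7 of 12 cells and 917 CPM (731 to 1135) in 9 of 9, and Tnfrsf9 at 27.0 and 382 CPM. Tnfrsf18, which encodes the costimulatory receptor GITR, was at 94.5 and 360 CPM. Ctla4 (432 and 327 CPM) and Ikzf2 (729 and 557 CPM), both typical of regulatory T cells, had overlapping intervals. Il7r, which regulatory T cells hold at a low level, was at 189 and 10.9 CPM.

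RNA of other cell types was present in the T cells of both libraries. Of the genes that were highest over all 6183, Lcn2, Timp1, Spp1, C1qa, PYMT, C1qb and Saa3 are better known from carcinoma, stromal or myeloid cells, and all 7 were also higher in the other kept cells of the high-burden library. PYMT, the transgene of the tumour model from which Met-1 came, had 0 UMIs at low burden and 39 UMIs in 27 of 58 T cells, with at most 3 per cell. In all other kept cells PYMT was also at 0 CPM at low burden, and at 64.3 CPM at high burden. Spp1, encoding osteopontin, had 101 and 1492 UMIs, of which 1 cell held 1160. Sftpc, a surfactant gene of the alveolar epithelium, was in 92.0% and 84.5% of thinned T cells and in 88.1% and 74.2% of thinned B cells. One high-burden T cell held 2185 of the 3687 Sftpc UMIs.

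Of the genes summed below, only Birc5 of the carcinoma list is also in a T cell list, that of proliferation. Birc5 had 67 UMIs in low-burden T cells, all in cells of 1000 or more genes. Amounts differed by list. Macrophage genes summed to 2135 and 5739 CPM, epithelial genes to 4029 and 10880, stromal genes to 1693 and 4732, carcinoma genes to 132 and 910 and endothelial genes to 1276 and 513. Every listed macrophage gene except Arg1 had a UMI in high-burden T cells, and every listed carcinoma gene did, while PYMT, Hmga2, Twist1 and Fosl1 were at 0 at low burden. The B cell genes Ms4a1 and Pax5 were at 0 in high-burden T cells. A C1q UMI was found in 15 of 276 and 51 of 58 T cells, and 3 or more genes of other lineages at 2 or more UMIs in 125 and 54. The lowest of all genes, Ear10, Cd55, Abcg1, Ear2, Ear1, Chil3, Ccl21a and Fabp1, were lower in the other cells as well, Chil3 by -5.84 and Ear2 by -6.55. Xcl1, Pdcd1, Tnfrsf9 and Il7r had no UMI in thinned B cells of either library. At full depth Pdcd1 had 0 and 2 UMIs in B cells and Il7r 1 and 2, and Xcl1 and Tnfrsf9 had none. The part of foreign RNA in the other ratios was not tested.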

How the data were processed

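The 2 single-cell libraries were analysed. The deposited values are raw UMI counts per gene and cell, which the authors made with Cell Ranger 2.0.2 on mm10 with the PYMT sequence added, and the labels also name Seurat. Whether the deposited counts precede an aggregation of the libraries is not stated in the sources used here. Both libraries list 27999 genes and hold 14041471 UMIs in 2668 cells and 52723173 UMIs in 3121 cells. T cell depth was 2388 to 20386 UMIs at low and 5186 to 19176 at high burden.

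Counts were summed over T cells, scaled to CPM and compared as log2 ratios. Ratios carry exact conditional binomial, counts exact Poisson and shares Clopper-Pearson intervals. A count of 0 was set to 3 UMIs per sum for bounds. With 1 mouse per group no test was made. B cells needed 2 Cd79a and Cd79b UMIs, 3 per 10000 and at most 1 Cd3 UMI. Natural killer cells needed 2 UMIs of Ncr1 and Klrb1c and no UMI of the Cd3 or Cd79 genes. Named genes were the 20 highest markers with 50 or more UMIs, the 10 highest and lowest ratios over all genes and over T-enriched genes, and members of 29 lists, of which 418 of 429 entries are in the files. The 11 others include the receptor constant genes. The T cells, lists and genes were chosen with earlier results of these data known. Scrublet marked 10 (0.375%) and 7 (0.224%) cells and no T cell, too few to have worked, so doublets were kept. The shared UMI floor, the thinning to 2388 UMIs, the class II limit, T enrichment within each library and the core list without Cd3 genes were chosen after seeing the data. The ratio was tested on simulated data. Python 3.11.15, numpy 2.4.6, scipy 1.17.1 and scanpy 1.11.5 were used. Some items are not reported here.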

Additional observations from a re-analysis of the deposited data

Results flagged for a closer look

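In each library 1 cell met every T cell limit but lay outside the limits on genes and mitochondrial share, and so entered no comparison. The low-burden cell had 3626 UMIs, 1165 genes, a mitochondrial share of 22.4% and 8 Cd3 UMIs. The high-burden cell had 6604 UMIs, 2316 genes, a mitochondrial share of 14.6% and 6 Cd3 UMIs. Both were set apart by their mitochondrial share, and with 1 cell each no level was computed.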

How the results depend on the processing

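The low-burden share of 10.7% became 7.80% with a minimum of 1000 genes, 12.4% with 1 Cd3 UMI, 5.87% without cells holding 3 or more genes of other lineages, 5.38% at the shared UMI floor, 3.82% there without class II-rich cells and 5.67% thinned to 1000 UMIs. The high-burden share of 1.91% became 0.230% with no C1q UMI (7 cells), 0.132% without cells of other lineages (4 cells), 1.45% without class II-rich cells, alone or with the floor, 0.461% and 1.32% thinned to 1000 and 2388 UMIs, and 3.61% without carcinoma-gene cells. The 625 genes higher by 2-fold became 323 at the floor, 281 there without class II-rich cells, 351 with median-of-ratios scaling, 2205 with no filter, 266 with 50 or more UMIs and 275 thinned to 1000 UMIs. The 350 lower genes became 204 without cells of other lineages, 597 with median-of-ratios scaling, 1308 with no filter and 142 thinned to 1000 UMIs. Fewer cells or UMIs enter the thinned and restricted sums, and otherwise the cause was not tested. Among values past 2-fold, a direction turned for Mki67 at the floor (-0.004226) and there without class II-rich cells (-0.13), and in that last setting for Top2a (-0.03348) and the proliferation median (-0.03348). Over 20 alternatives the naive median ran from -2.10 to -1.18, the regulatory median from 0.82 to 2.28 and the checkpoint median from 0.73 to 1.64. Of ratios under 2-fold, Cd8b1 went from -0.40 to 0.82 at the floor, and the lowest or highest value lay across 0 for Cd8a (-0.70), the CD8 median (-1.35), the effector median (-0.07), the chemokine receptor median (0.46) and the stromal median (-1.49). The same held for Lck (0.37) and the medians of CD4 helper (0.91), receptor signalling (0.26), cytokine receptor (0.49), survival (0.33), cytokine (-0.10) and immediate early (-0.18) genes. It also held for the natural killer (-0.70), innate lymphoid (1.135), B cell (-0.77), dendritic (-0.97), epithelial (-0.65) and erythroid (1.385) medians, and for the median of all genes (-0.10). No paired analysis was possible because each group has 1 library. A comparison of T cells of under 1000 genes between the lungs was not run, since the high-burden lung had 0. Gamma delta shares were not computed, since their constant genes were not used here. Leaving out a replicate was not possible with 1 mouse per group, and small T cells could not be counted at the depth of the high-burden library.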

Other observations

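Further lists in the T cells, high over low burden, gave these medians of the log2 ratio. CD4 helper genes stood at -0.32, with 5 of 7 past the filter and 0 past 2-fold. Of these, Cd40lg, the ligand by which helper cells stimulate B cells, had 42 and 12 UMIs, and Izumo1r, the folate receptor 4 of regulatory T cells, 75 and 28. Cytokine genes had 6 of 21 past the filter and a median of 0.17, with Xcl1 and Mif (314 and 362 UMIs, 1.31) at least 2-fold higher. Cytokine receptors had a median of -0.40 over 16 genes, with Il2ra and Il2rb at least 2-fold higher and Il6ra, Il7r, Il27ra and Il17ra lower. Chemokine receptors and egress genes had a median of -0.60 over 11 genes, with 1 higher and 4 lower. Immediate early genes, which dissociation can induce, had a median of 0.22 over 27 genes, with Ier3 (2.02) and Nr4a1 (1.16) higher and Btg1 (-1.40) lower. The gamma delta list had no gene past the filter.

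Lists of other cells summed to 674 and 694 CPM for natural killer genes, 284 and 275 for type 2 innate lymphoid genes, 168 and 350 for neutrophil genes, 3037 and 4192 for dendritic genes, 3716 and 4827 for B cell genes and 3022 and 2242 for erythroid genes. At the shared UMI floor, dendritic genes were at 8174 and 4192 CPM and B cell genes, among them Cd74, at 10140 and 4827. The 45 low-burden cells at the floor include 13 class II-rich cells. Without class II-rich cells the medians at the floor were 0.43 for the 2 dendritic genes past the filter and -0.12 for the 2 B cell genes.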
